A study of Homo sapiens with 3 samples.

Results

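Aminoacyl-tRNA synthetases are the enzymes described here. Their 35 genes were taken from the deposited table by symbol alone, 20 for the cytosolic enzymes and 15 for the mitochondrial enzymes, whose symbols end in 2. All 35 were among the 12040 genes of the table. No measured value was part of the rule, but members were chosen with earlier results of these data known. The series asked what depletion of DICER1, the endonuclease that cuts miRNA precursors, does to poly(A) RNA in HEK293 cells, a line derived from human embryonic kidney. The 3 groups were an RNAi knockdown of DICER1, an RNAi knockdown of DROSHA, which makes those precursors, and a mock transfection. Each group was 1 library. All 3 groups were HEK293 T-Rex FLP-IN cells carrying FLAG:DICER1, a tagged DICER1 transgene, which the controls carry too, and all titles bear an unexplained 2.5d.

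The table holds 3 columns of levels with no header, so no column can be matched to a library by name. They are called the first numerator, the second numerator and the shared denominator. The authors' 2 log2 fold changes set each numerator over that denominator after adding 1 to each level. No knockdown is assigned to either comparison. DICER1 had levels of 5.72 in the first numerator, 24.0 in the second numerator and 15.7 in the denominator. DROSHA had 21.4 in the first numerator, 6.72 in the second numerator and 23.3 in the denominator. Both comparisons share the denominator library, so they are not independent of each other. Because every group is a single library, no value has a replicate error and nothing was tested. Depth is unknown. The levels are the authors' own values in a unit that no source states, so no order of abundance among genes is read from them. They serve across genes only to choose genes of like denominator level and to mark low values. Of 10 HEK293 marker genes 7 were listed, among them VIM, KRT18 and NEFL, while PAX2, LHX1 and NEFM were not. None of 6 blood, liver, fibroblast and endothelial markers was listed.

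Synthetases join amino acids to their matching tRNAs, the step that fixes the genetic code. The cytosol and the mitochondrion use largely separate sets of enzymes, and the mitochondrial ones too are encoded by nuclear genes. GARS and KARS serve both compartments from a single gene. Several cytosolic enzymes sit in a multisynthetase complex held by the scaffold proteins AIMP1, AIMP2 and EEF1E1. Many cytosolic synthetase genes are targets of ATF4, the transcription factor of the amino acid response, which binds a composite C/EBP-ATF element.

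The ATF4 element is shown first because its matches among cytosolic genes all fell in the enzymes listed here as ATF4 targets. That list was drawn from general knowledge, with earlier results of these data known. The list and the element both concern ATF4, so their overlap is not independent support for either. RefSeq windows of 300 bases, from 250 before to 50 after a transcription start (GRCh38.p14), were present for 29 of the 35 members and searched for TGATGNAA on both strands. The motif was present for 7 of 16 cytosolic members (43.8%) and for 1 of 13 mitochondrial members (7.69%). Counted by gene in the same way, with a match in any window, it was present for 4.46% of all 27305 genes. For the 8633 genes of the table found by symbol this share was 2.59%. Counted by window, it was present in 3.62% of all 35116 windows, and in 8 of 38 windows of the synthetases (21.1%). All 7 cytosolic carriers belong to that list of 12 enzymes, of which 10 had a window. None of 6 windowed genes outside that list carried it. A match is a description of the letters and not a site. For 6 of the 7, the match began between 33 bases before the start and 14 after it. Capitals mark the match, which reads as TTNCATCA where it lies on the other strand. The sequences come from RefSeq and run 5′ to 3′ along the gene's strand, and each one that reaches bases transcribed from any of the gene's listed starts is held to 30 bases.
CARS, chr11:3057407-3057436, minus strand: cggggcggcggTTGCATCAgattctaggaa
MARS, chr12:57488053-57488082, plus strand: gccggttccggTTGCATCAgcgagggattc
TARS, chr5:33440956-33440985, plus strand: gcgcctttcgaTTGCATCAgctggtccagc
NARS, chr18:57621804-57621833, minus strand: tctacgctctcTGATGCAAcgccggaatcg
IARS, chr9:92293698-92293736, minus strand: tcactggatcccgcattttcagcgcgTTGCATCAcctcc
GARS, chr7:30594834-30594863, plus strand: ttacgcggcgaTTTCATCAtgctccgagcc
AARS, chr16:70289660-70289719, minus strand: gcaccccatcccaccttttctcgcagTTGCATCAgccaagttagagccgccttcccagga

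The 250 bases before the start of RARS, chosen as the lowest cytosolic member of the first comparison, held no match. Because RARS was chosen by its value, it does not show whether a missing match goes with a lower fold change. Of 9 windowed cytosolic genes without a match, 7 lay above 0 in that comparison, as did all 7 carriers. The second comparison had 7 of 9 and 6 of 7 above 0. RARS stood there at 0.24, and the highest carrier was AARS at 0.20.
RARS, chr5:168486221-168486470, plus strand: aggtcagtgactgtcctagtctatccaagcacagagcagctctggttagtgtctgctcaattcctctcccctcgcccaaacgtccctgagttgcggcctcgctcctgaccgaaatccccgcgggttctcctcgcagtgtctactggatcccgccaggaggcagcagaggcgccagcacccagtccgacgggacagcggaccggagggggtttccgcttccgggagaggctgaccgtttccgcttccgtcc

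With 1 added to each level, as the authors did, no member was 1.5-fold higher or lower in either comparison, or between the numerators. With 0.1 added, 1 member was, PARS2 at 0.76 in the first comparison. In the first comparison 0.872% of all genes were at least 1.5-fold higher and 1.30% at least 1.5-fold lower. In the second these shares were 1.21% and 3.85%, so a count of 0 among 35 genes is near the share of all genes. Between the numerators, 6.17% of all genes were at least 1.5-fold higher in the first and 2.96% at least 1.5-fold lower. At a lower threshold of 0.322 on the log2 scale, CARS and PARS2 were higher in the first comparison, as were 6.55% of all genes, and no member was lower, against 5.71% of all genes. In the second comparison VARS2 alone was lower by that much, against 13.2% of all genes, and no member was higher, against 9.23%. So 2 of 35 members passed in the first comparison, against 1 of 35 in the other.

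**Figure D1:**
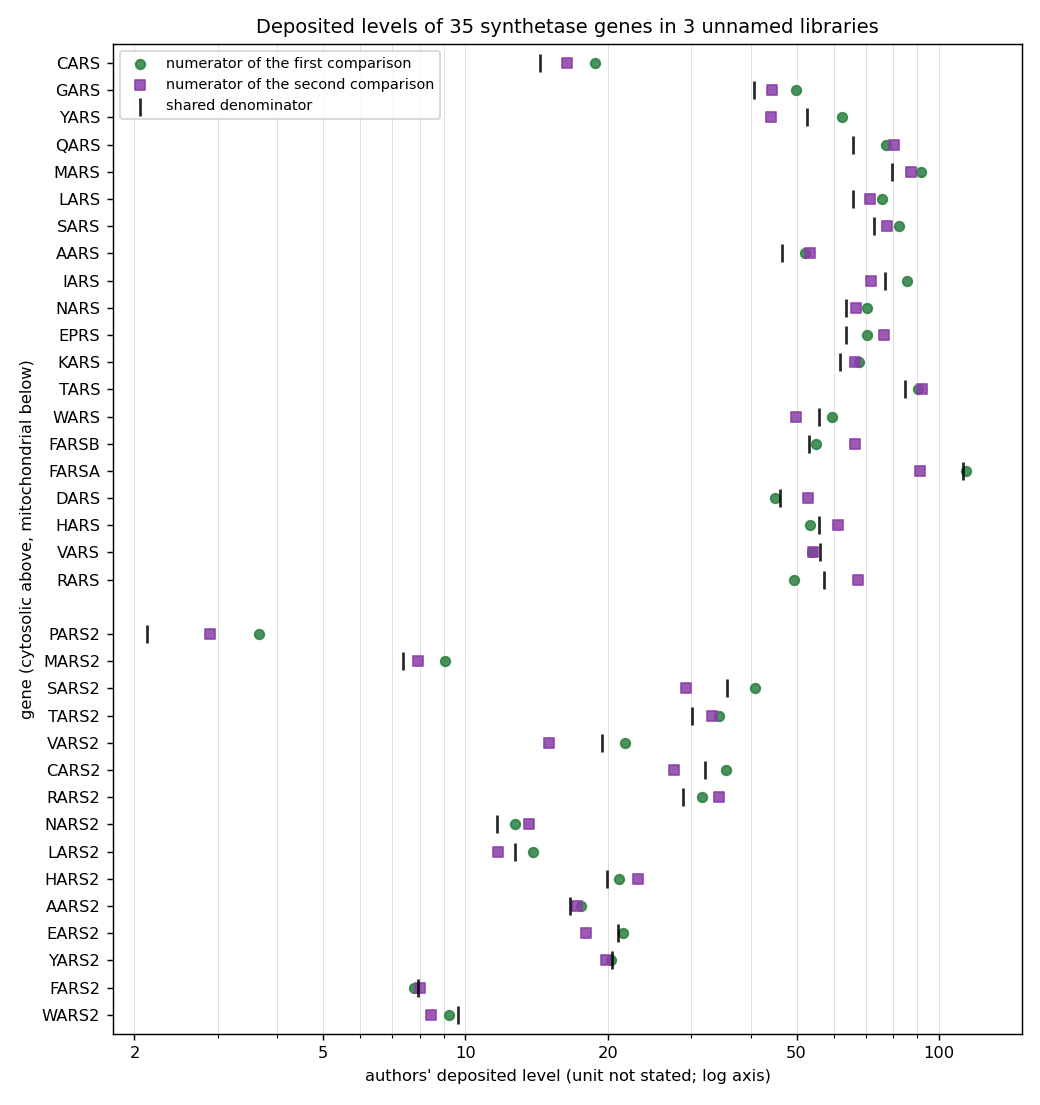
Authors' deposited levels of the 35 genes on a log axis, unit not stated: circles show the numerator of the first comparison, squares that of the second and bars the shared denominator, with cytosolic genes above. The 3 marks of a gene lie close together for most genes and furthest apart for PARS2, RARS, YARS, SARS2 and VARS2.

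Most cytosolic enzymes were slightly higher than the denominator in each comparison. In both, 12 of 20 lay above 0, where 3639 of all 12040 genes did. Of the remaining cytosolic enzymes, 4 lay above 0 in the first only, 3 in the second only and 1 in neither. In the first, 16 of 20 lay above 0 with a median log2 fold change of 0.15, where 56.5% of all genes lay above 0 with a median of 0.03. In the second, 15 of 20 lay above 0 with a median of 0.12, against 51.1% and 0.01 for all genes. The range was -0.21 for RARS to 0.36 for CARS in the first comparison, and -0.30 for FARSA to 0.31 for FARSB in the second. Genes with denominator levels in the range of these members numbered 3987, and 95% of them lay between -0.46 and 0.38 (first) or -0.69 and 0.45 (second). All 20 cytosolic members were inside both intervals. This spread over genes is not an error over libraries.

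**Figure D2:**
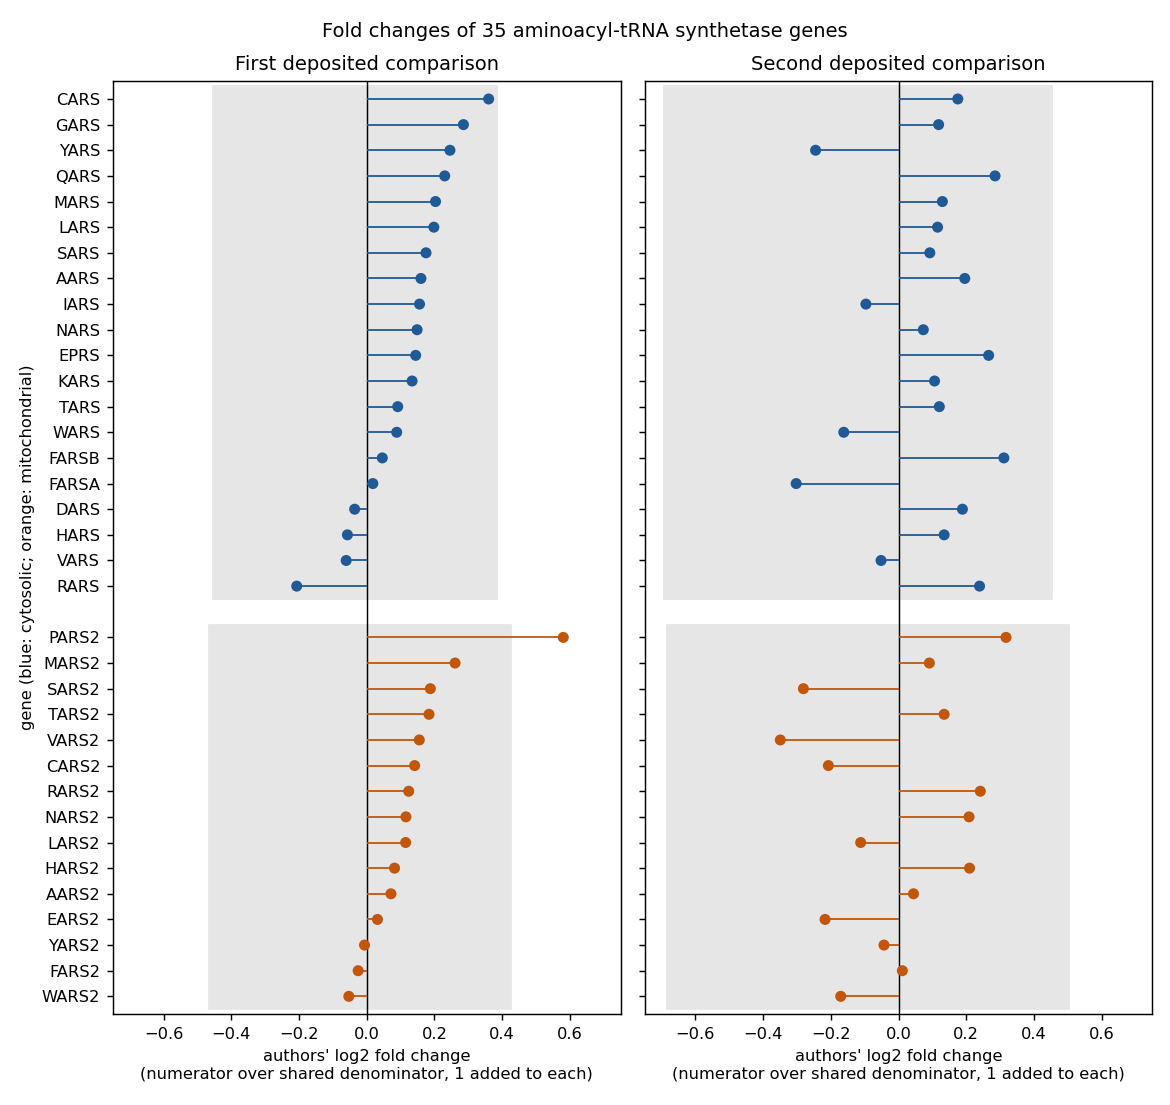
Authors' log2 fold changes of the 35 genes in the first (left) and the second (right) deposited comparison, with cytosolic genes above mitochondrial ones and each block in order of the first comparison. Grey bands cover the central 95% of genes of like denominator level, and PARS2 at 0.58 in the first comparison is the 1 point outside them.

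Among cytosolic enzymes, those listed as ATF4 targets were all above the denominator in the first comparison. All 12 lay above 0, from 0.09 for WARS to 0.36 for CARS, with a median of 0.17. The list was written with earlier results of these data known, so this is a description only. CARS, the cysteinyl-tRNA synthetase, had levels of 18.7 in the first numerator, 16.4 in the second numerator and 14.4 in the denominator. Both numerators were above the denominator for CARS, and the deposited log2 fold changes were 0.36 and 0.18. GARS, which charges glycine tRNAs, had levels of 49.8 and 44.3 in the first and second numerators and 40.7 in the denominator, for deposited changes of 0.29 and 0.12. MARS, which charges methionine tRNAs, stood at 91.8 and 87.1 against 79.6 in the denominator, for deposited changes of 0.20 and 0.13. These 3 genes shared the order first numerator, second numerator, denominator. MARS overlaps exons of DDIT3 on the other strand by 5.05% of its exonic bases in GENCODE 29, and DDIT3 was itself at 0.80 and -0.25 in the authors' deposited table. No source used here says whether counting took account of strand, so the MARS value can hold reads of DDIT3, and its part in the result was not tested. Of the remaining listed enzymes, the authors' deposited table gives YARS 0.25, LARS 0.20, SARS 0.17, AARS and IARS 0.16 each, NARS 0.15, EPRS 0.14 and TARS and WARS 0.09 each in the first comparison. AARS, which charges alanine tRNAs, and TARS, which charges threonine tRNAs, were higher in the second comparison than in the first, at 0.20 and 0.12. LARS for leucine, SARS for serine and NARS for asparagine were lower there, at 0.12, 0.09 and 0.07.

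The 8 cytosolic enzymes outside the list had a median of -0.01 in the first comparison, with 4 above 0. QARS, the glutaminyl-tRNA synthetase, was the highest of them, with levels of 77.4 and 80.5 in the first and second numerators and 65.9 in the denominator, so that it was at 0.23 and 0.29. RARS, the arginyl-tRNA synthetase, was the lowest, with levels of 49.3 and 67.6 in the numerators and 57.1 in the denominator. Its deposited values of -0.21 and 0.24 put the denominator between the numerators. For KARS, the lysyl-tRNA synthetase, the deposited values were 0.13 and 0.11. DARS, HARS and VARS, for aspartate, histidine and valine, were at -0.04, -0.06 and -0.06 in the first comparison. By the promoter match, the 7 carriers had a median of 0.16 and ranged from 0.09 to 0.36, and the 9 windowed cytosolic genes without a match had a median of 0.09 and ranged from -0.21 to 0.23. In the second comparison the medians were 0.12 for carriers and 0.13 for the others.

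The order of these medians was the other way in the second comparison. There the 12 listed enzymes had a median of 0.12 with 9 above 0, and the 8 others a median of 0.16 with 6 above 0. When centred by GC content, these medians were 0.07 for the listed enzymes and 0.11 for the others. IARS, WARS and YARS, which charge isoleucine, tryptophan and tyrosine tRNAs, were the listed enzymes below 0, at -0.10, -0.16 and -0.24 in the authors' deposited table. YARS had levels of 62.5 in the first numerator, 44.2 in the second numerator and 52.6 in the denominator. The numerators of YARS thus lay on opposite sides of the denominator. EPRS, the bifunctional enzyme for glutamate and proline, was the highest listed enzyme in the second comparison at 0.27, with levels of 70.3 and 76.6 in the numerators and 63.5 in the denominator.

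Other genes of the amino acid response were further from the denominator than the synthetases, and below it in the second comparison. Of 27 measured genes, 26 lay above 0 in the first comparison, where their median was 0.42 and 9 were at least 1.5-fold higher. Of all genes, 56.5% lay above 0 there and 0.872% were at least 1.5-fold higher. In the second, 20 of 27 lay below 0, their median was -0.23 and 3 were at least 1.5-fold lower. Of all 12040 genes, 5887 lay below 0 in the second and 3.85% were at least 1.5-fold lower. Centred by GC content, the medians of the 27 genes were 0.35 and -0.18. The list was ATF4, its partners and its target enzymes and transporters. ATF4 itself had levels of 503.5 and 331.2 in the first and second numerators and 413.7 in the denominator. ASNS, asparagine synthetase, had 103.0 and 58.8 in the numerators and 62.5 in the denominator, for deposited changes of 0.71 and -0.09. NUPR1 at 1.21 and SESN2 at 1.14 were highest in the first comparison and SLC38A2 at -0.15 and ATF3 at 0.12 lowest, in the authors' deposited table. In the second, VLDLR at 0.52 and PPP1R15A at 0.17 were highest and NUPR1 at -1.05 and ATF5 at -0.87 lowest, in the authors' deposited table. The difference between this list and the synthetases was not tested.

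**Figure D3:**
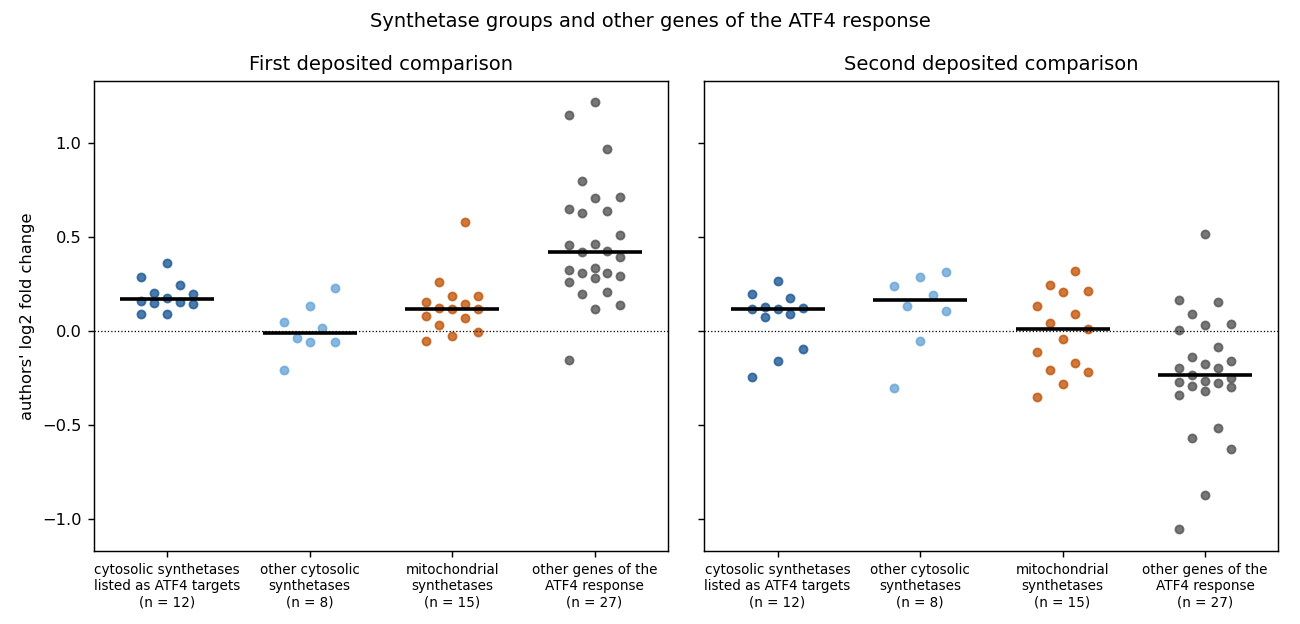
Authors' log2 fold changes in the first (left) and the second (right) comparison for cytosolic synthetases listed as ATF4 targets, the other cytosolic synthetases, the mitochondrial synthetases and 27 other genes of the ATF4 amino acid response; points are genes and bars are medians. The last group has medians of 0.42 and -0.23, and the first 0.17 and 0.12.

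By catalytic architecture the cytosolic medians were close. The 10 of class I, with the Rossmann-type active site, had medians of 0.18 and 0.12 in the first and second comparisons, and the 10 of class II medians of 0.11 and 0.12. EPRS was counted in class I by its glutamyl domain, although its prolyl domain belongs to class II. The 8 enzymes of the multisynthetase complex had medians of 0.15 and 0.16, with 6 and 7 above 0. IARS alone of the 8 was below 0 in the second comparison, and RARS and DARS were below 0 in the first. The scaffold proteins differed from each other. AIMP2 had levels of 32.8 and 20.9 in the first and second numerators and 27.6 in the denominator, for deposited values of 0.24 and -0.38. EEF1E1 was at 65.3 and 83.2 in the numerators and 74.3 in the denominator, for deposited values of -0.18 and 0.16. For AIMP1 the authors' deposited table gives 0.01 and -0.10. AIMP2 and EEF1E1 thus had opposite signs in each comparison.

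FARSA and FARSB encode the alpha and beta subunits of a single enzyme, the cytosolic phenylalanyl-tRNA synthetase, and had opposite signs in the second comparison. FARSA had levels of 113.9 in the first numerator, 91.0 in the second numerator and 112.5 in the denominator. FARSB had levels of 55.0 in the first numerator, 66.3 in the second numerator and 53.3 in the denominator. Only the second numerator stood apart for both subunits, lower for FARSA and higher for FARSB. In the first comparison their deposited fold changes were 0.02 and 0.05. The second gave -0.30 and 0.31, where they differed by -0.61 (FARSA minus FARSB). The value of FARSA in the first comparison becomes -0.01 when all genes are centred on 0. The GC content of their longest coding transcripts was 60.3% for FARSA and 41.6% for FARSB, and its part in the difference was not tested.

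Most mitochondrial enzymes were above the denominator in the first comparison and divided in the second. In the first, 12 of 15 lay above 0 with a median of 0.12, and centring by GC content gave 10 of 15 and a median of 0.06. In the second, 8 of 15 lay above 0 with a median of 0.01, which turned to -0.04 when only members with a denominator level of at least 10 were kept and was 0.06 when centred by GC content. PARS2, the prolyl-tRNA synthetase of mitochondria, was the highest in both, with levels of 3.67 and 2.89 in the first and second numerators and 2.12 in the denominator. Its level in the first numerator was 1.73 times that in the denominator, and with 1 added to each the deposited log2 value was 0.580, just under the 1.5-fold threshold of 0.585. In the second comparison it was 0.32. Its denominator level lay near the lowest in the table, 1.0005, and no replicate shows how far such a low value varies. With 0.1 added in place of 1, PARS2 reached 0.76 and passed the threshold. Next in the first comparison was MARS2, which charges methionine tRNAs, at 9.05 and 7.94 in the numerators and 7.39 in the denominator, for deposited values of 0.26 and 0.09.

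At the other end of the second comparison stood VARS2, SARS2, EARS2 and CARS2, for valine, serine, glutamate and cysteine. VARS2 had levels of 21.7 in the first numerator, 15.0 in the second numerator and 19.4 in the denominator. SARS2 had levels of 40.8 in the first numerator, 29.2 in the second numerator and 35.7 in the denominator. For VARS2, SARS2, EARS2 and CARS2 the denominator lay between the numerators, with the first numerator the highest. Their deposited values in the second comparison were -0.35, -0.28 and -0.21, and EARS2 was at -0.22. SARS2 shares 46.2% of its exonic bases in GENCODE 29 with a readthrough gene on the same strand, and VARS2 shares 21.99% with GTF2H4, so their values are uncertain. After PARS2, the highest were RARS2 at 0.24, HARS2 at 0.21 and NARS2 at 0.21 in the authors' deposited table. HARS2 shares 11.7% of its exonic bases with HARS on the other strand. WARS2, at -0.05 and -0.17, and YARS2, at -0.01 and -0.04, were below 0 in both comparisons. TARS2, for threonine, at 0.18 and 0.13, and AARS2, for alanine, at 0.07 and 0.04, were above 0 in both. LARS2, for leucine, at 0.11 and -0.11, and FARS2, the single-chain phenylalanine enzyme, at -0.03 and 0.01, changed sign between the comparisons. In all, 20 of the 35 genes overlap exons of another gene, and 10 have a named pseudogene that could share reads.

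The 12 enzyme pairs that share a root symbol, cytosolic and mitochondrial, had no common order. The cytosolic gene was higher than its mitochondrial partner in 6 of 12 pairs of the first comparison and 7 of 12 pairs of the second. The median difference, cytosolic minus mitochondrial, was 0.01 for the first comparison and 0.02 for the second. In the first, the differences ran from -0.33 for RARS against RARS2 to 0.25 for YARS against YARS2. In the second, they ran from -0.20 for YARS against YARS2 to 0.38 for CARS against CARS2. The YARS pair therefore stood at opposite ends of the 2 comparisons. Over whole lists, the cytosolic minus the mitochondrial median was 0.03 in the first comparison, which turns to -0.01 with means, and 0.11 in the second, which becomes 0.03 when centred by GC content.

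The numerators can be set against each other with the denominator cancelled. On that difference of log2 fold changes VARS2 stood at 0.50, YARS at 0.49, SARS2 at 0.47 and CARS2 at 0.35, all past 0.322. RARS, at -0.45, was alone past it on the lower side. Among all genes, 18.0% were past it on the higher side and 12.5% on the lower. FARSA, at 0.320, lay just under it, and FARSB stood at -0.27. The cytosolic median was 0.05 and the mitochondrial median 0.12, or 0.05 for members with a denominator level of at least 10, against 0.02 for all genes.

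The difference between the numerators was larger for members of higher GC content. Spearman's rho between GC content of the longest coding transcript and that difference was 0.53 over the 35 members, and 0.46 over 10585 genes with a transcript. The points share the same 3 libraries, and rho is given as a description. VARS2 at 60.2%, SARS2 at 61.2%, CARS2 at 56.4% and YARS at 55.7% GC were high in the difference, and RARS at 41.4% was low. VARS, at 62.6%, had the highest GC content and a difference of -0.01. Centring each gene on others of like GC content left VARS2 at 0.33, SARS2 at 0.30, CARS2 at 0.22, YARS at 0.36 and RARS at -0.33.

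**Figure D4:**
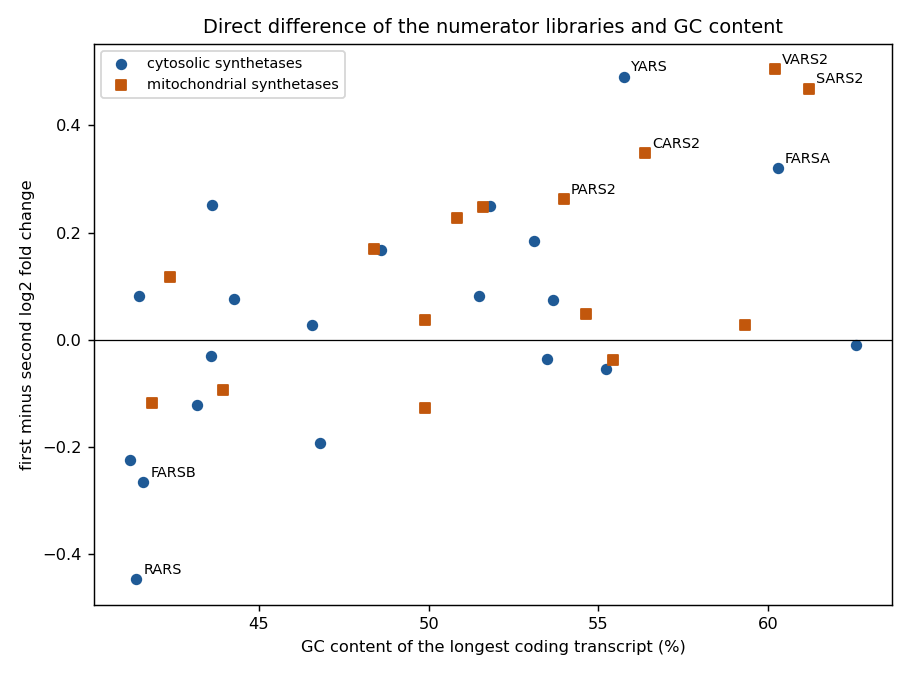
First minus second log2 fold change against GC content of the longest coding transcript for the 35 genes, circles for cytosolic and squares for mitochondrial enzymes; genes beyond 0.26 in size are named. RARS lies lowest at 41.4% GC, and VARS2, YARS and SARS2 lie highest between 55.7% and 61.2%.

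The factors that receive charged tRNAs are listed beside their enzymes. Of the cytosolic elongation factors, EEF1A1, which carries aminoacyl-tRNA to the ribosome, had levels of 3040 and 2643 in the first and second numerators and 2436 in the denominator. EEF1A2, its close paralogue, was at 18.0 and 10.7 in the numerators and 17.4 in the denominator. Its -0.66 in the second comparison was the 1 deposited value past 1.5-fold among the 5 delivery factors. Of all genes, 3.85% were at least 1.5-fold lower there. Between the numerators EEF1A2 stood at 0.70, where 6.17% of all genes were at least 1.5-fold higher. Its longest coding transcript had a GC content of 66.4%, and the part of GC content in these values was not tested. EEF1G at 0.35 and 0.19, EEF1D at 0.27 and 0.05 and EEF1B2 at 0.05 and -0.20 complete that list in the authors' deposited table. All 10 mitochondrial translation factors lay above 0 in the second comparison, and their median was 0.17, from MTFMT at 0.10 to GFM1 at 0.33. In the first comparison 5 of the 10 did, their median was 0.05, from MTIF3 at -0.38 to MTFMT at 0.30. The GatCAB subunits QRSL1, PET112 and GATC, which make mitochondrial glutaminyl-tRNA, lay between -0.05 and 0.13 in both comparisons.

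Genes acting on tRNA before or after charging showed no common direction. Among 30 measured genes of tRNA maturation and export the median was 0.03 in both comparisons, with 17 and 16 above 0. None was 1.5-fold higher or lower in either. Of all genes, 0.872% were higher and 1.30% lower by that much in the first comparison, and 1.21% and 3.85% in the second. Between the numerators, 2 of the 30 were at least 1.5-fold higher, TSEN15 at 0.71 and TRMT61A at 0.67. TRNT1, at -0.60, was at least 1.5-fold lower there. These shares were 6.17% and 2.96% of all genes. TSEN54 at 0.36 and TRMT61A at 0.31 were highest in the first comparison and ADAT1 at -0.29 and TRNT1 at -0.27 lowest, in the authors' deposited table. In the second, TRNT1 at 0.33 and RPP40 at 0.29 were highest and TSEN15 at -0.54 and NSUN2 at -0.42 lowest, in the authors' deposited table. TRNT1, which adds the CCA end to which amino acids are joined, had levels of 10.5 and 16.4 in the first and second numerators and 12.8 in the denominator. Among genes acting on tRNA after charging, AARSD1 was at 0.00 and -0.16, DTD1 at -0.03 and -0.17, and PTRH2 at -0.05 and 0.31 in the authors' deposited table.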

How the data were processed

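Poly(A) RNA of 3 libraries was sequenced by the submitters after an Illumina TruSeq preparation, per the labels' protocols. Per the submitters' processing notes, SAMtools, Cufflinks, Cuffdiff 2.1.1, TopHat2 2.06, CASAVA 1.8.2 and the build hg19 were used, with no role given. The authors deposited 1 table of 12040 genes with no header. The authors deposited the 3 level columns in a unit and scaling that no source states, so each value is treated as a score as deposited. The deposited log2 fold changes equal the log2 ratio of levels after 1 was added to each, with a largest deviation of 4.97e-12, and every denominator level is above 1. The level columns are per-library values whose libraries are not named. They are printed as the authors' values and assigned to no group.

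Members and companion lists were chosen with earlier results of these data known. All members were eligible to be named, with DICER1, DROSHA, whole lists of up to 6 genes and the 2 highest and 2 lowest of longer lists. With 1 library a group, a gene counts as different at 1.5-fold, and nothing was tested. DDIT3 and ASNS, the FARSA and FARSB contrast, the ranges of genes of like level and the promoter motif search were chosen after the data were seen. Alternatives were thresholds of 2-fold and 1.25-fold (0.322 on the log2 scale), centring on all genes, additions of 0.1 and 5, means, a denominator level of at least 10, and lists without GARS, KARS, QARS, HARS and HARS2. GC content was that of the longest coding transcript in GENCODE 29 (GRCh38), found for all 35 members and 10585 genes. Centring by GC used 10 bins. Some genes and the values that need them are not reported here. Promoter windows were RefSeq's, matched through synonyms. The counts past a threshold and the centring by GC content were tested on simulated data, and the other computations were not. All were run with Python 3.11.15, pandas 2.3.3 and SciPy 1.17.1.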

Additional observations from a re-analysis of the deposited data

Results flagged for a closer look

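VARS2, YARS, SARS2, CARS2 and RARS lay on opposite sides of the denominator in the 2 comparisons, with numerators at least 0.322 apart on the log2 scale. This held for these 5 of 35 members (14.3%) and for 2834 of all 12040 genes (23.5%). The difference itself has no test, each group being a single library. Between the numerators, as the first minus the second log2 fold change, VARS2 stood at 0.50, YARS at 0.49, SARS2 at 0.47, CARS2 at 0.35 and RARS at -0.45. When centred by GC content, SARS2 was at 0.295 and CARS2 at 0.219, both under 0.322, while VARS2 was at 0.331, YARS at 0.361 and RARS at -0.333.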

How the results depend on the processing

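No paired analysis was possible because each group has 1 library, and no replicate could be left out. The count of members past 1.5-fold was 0 with a 2-fold threshold, with all genes centred on 0 and with 5 added. With 0.1 added it was 1 for mitochondrial members in the first comparison. At 0.322 on the log2 scale it was 1 for cytosolic and 1 for mitochondrial members in the first comparison, 1 for mitochondrial members in the second, and 2 cytosolic and 3 mitochondrial members between the numerators. The mitochondrial median of the second comparison, 0.01, became -0.0080 as a mean, -0.0429 with a denominator level of at least 10, -0.0157 without GARS, KARS, QARS, HARS and HARS2, and 0.0635 when centred by GC content. Its first-comparison counterpart was 0.0558 by GC centring. Between the numerators the mitochondrial median was 0.0490 with a denominator level of at least 10. The cytosolic minus the mitochondrial median became -0.0147 as a difference of means in the first comparison, and 0.0279 by GC centring in the second. Between the numerators it was -0.07 as reported and -0.123 by GC centring. GC centring was chosen after seeing the data. The cause of these changes was not tested. The cytosolic median was between 0.12 and 0.15 in the first comparison and between 0.08 and 0.12 in the second under the alternatives run. Depth is unknown, so counting error cannot be given.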
